A study of Mus musculus with 4 samples.

Results

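The genes described here encode the signalling pathway of transforming growth factor beta (TGF-beta), the activins and the bone morphogenetic proteins (BMPs): ligands, proteins that store or release them, receptors, antagonists, Smads and target genes. The list held 47 mouse genes, chosen by gene symbol with earlier results of these data known. Of them, 46 were measured among 19505 genes, and Gdf15 was not analysed here. RNA was compared between wild-type (WT) and Hem1 KO mice, in macrophages differentiated from their marrow. Hem1 KO is the labelled knockout of Hem1, a subunit of the actin-regulating WAVE complex of blood cells that is encoded by Nckap1l. Femoral marrow cells differentiated over 8 days in RPMI that held 10% fetal calf serum and 20% of a medium in which L929 fibroblasts, which secrete CSF1, had grown; no further treatment was given. Each genotype had 2 cultures from different mice, each read on 1 array. The kind of Nckap1l allele, the strain and the age of the mice are not given in the sources used here.

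TGF-beta is secreted bound to its own propeptide and, in many cells, to a latent TGF-beta binding protein that tethers it in the matrix until it is activated. Ligands of the family bring type I and type II receptor kinases together. TGF-beta and activins act mainly through Smad2 and Smad3, and BMPs through Smad1, Smad5 and Smad9, which enter the nucleus with Smad4. In macrophages TGF-beta is known for restraining inflammatory genes, and secreted antagonists such as gremlin, noggin, chordin and follistatin keep BMPs or activins from their receptors.

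Values are log2 levels from RMA, a method that corrects, scales and summarises array probes, so that a difference of 1 is a doubling. Differences are Hem1 KO minus WT with the standard error (SE) of limma, a linear model that shares variance between genes, and n is 2 arrays per genotype throughout. "Called" means an adjusted p under 0.05 after Benjamini-Hochberg adjustment over all 19505 genes. With 2 arrays per genotype, the smallest two-sided p of an exact permutation test is 0.333. With 1 array left out, limma gave every gene the same variance. A call in such a fit therefore depended on the size of the difference alone and not on how well a gene's replicates agreed. The array medians over all rows ran from 6.08 to 6.63. Background was set on each array at the 95th percentile of 1448 chemosensory receptor genes and ran from 5.38 to 6.04. Nckap1l read 11.4 and 11.1 (WT) against 10.0 and 9.62 (Hem1 KO), 2.66-fold lower (adjusted p = 0.0467 by limma), a call that ended when either WT array or Hem1 KO replicate 2 was left out. Its transcript thus read well above background on all 4 arrays, and which part of Nckap1l the probes cover was not known.

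In Hem1 KO cultures 4 ligand genes (Tgfb2, Tgfb3, Bmp4 and Inhba), the storage protein gene Ltbp1 and the protease gene Bmp1 were higher. So were the BMP antagonist gene Grem1 and the target gene Id1. Fitted folds ran from 2.94 (Bmp1) to 4.96 (Tgfb3) for the genes above background on at least 1 WT array. For Bmp4 and Grem1, below background on both WT arrays, the folds were at least 3.86 and 4.11. The 2 Hem1 KO arrays of Bmp4 lay far apart, at 8.81 and 6.48. No receptor or Smad gene was called. Limma called 8 of the 46 measured genes higher, which is 17.4% of them, against 1.48% of all genes tested, and 0 lower, against 0.133% of all genes. The list was chosen with earlier results of these data known, so these shares describe it and do not test it. At an unadjusted p under 0.05, 12 had higher and 0 had lower levels, against 3.63% and 1.57% of all genes. Both Hem1 KO arrays lay above both WT arrays for 16 of the 46 genes (12.5% of all genes) and below them for 3 (13.3% of all genes), and the arrays overlapped for 27. The median difference of the 46 genes was 0.18, beside 0.01 over all genes. With 1 array left out it ran from -0.018 (Hem1 KO replicate 1) to 0.50 (Hem1 KO replicate 2), while the median over all genes moved in the same direction, from -0.18 to 0.21. Without WT replicate 2 limma called 5 of the 8 and no other member; Ltbp1, Bmp1 and Id1 were no longer called. As arrays of whole cultures, these values cannot tell apart a change in the number of cells of a type and a change in RNA per cell.

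**Figure D1:**
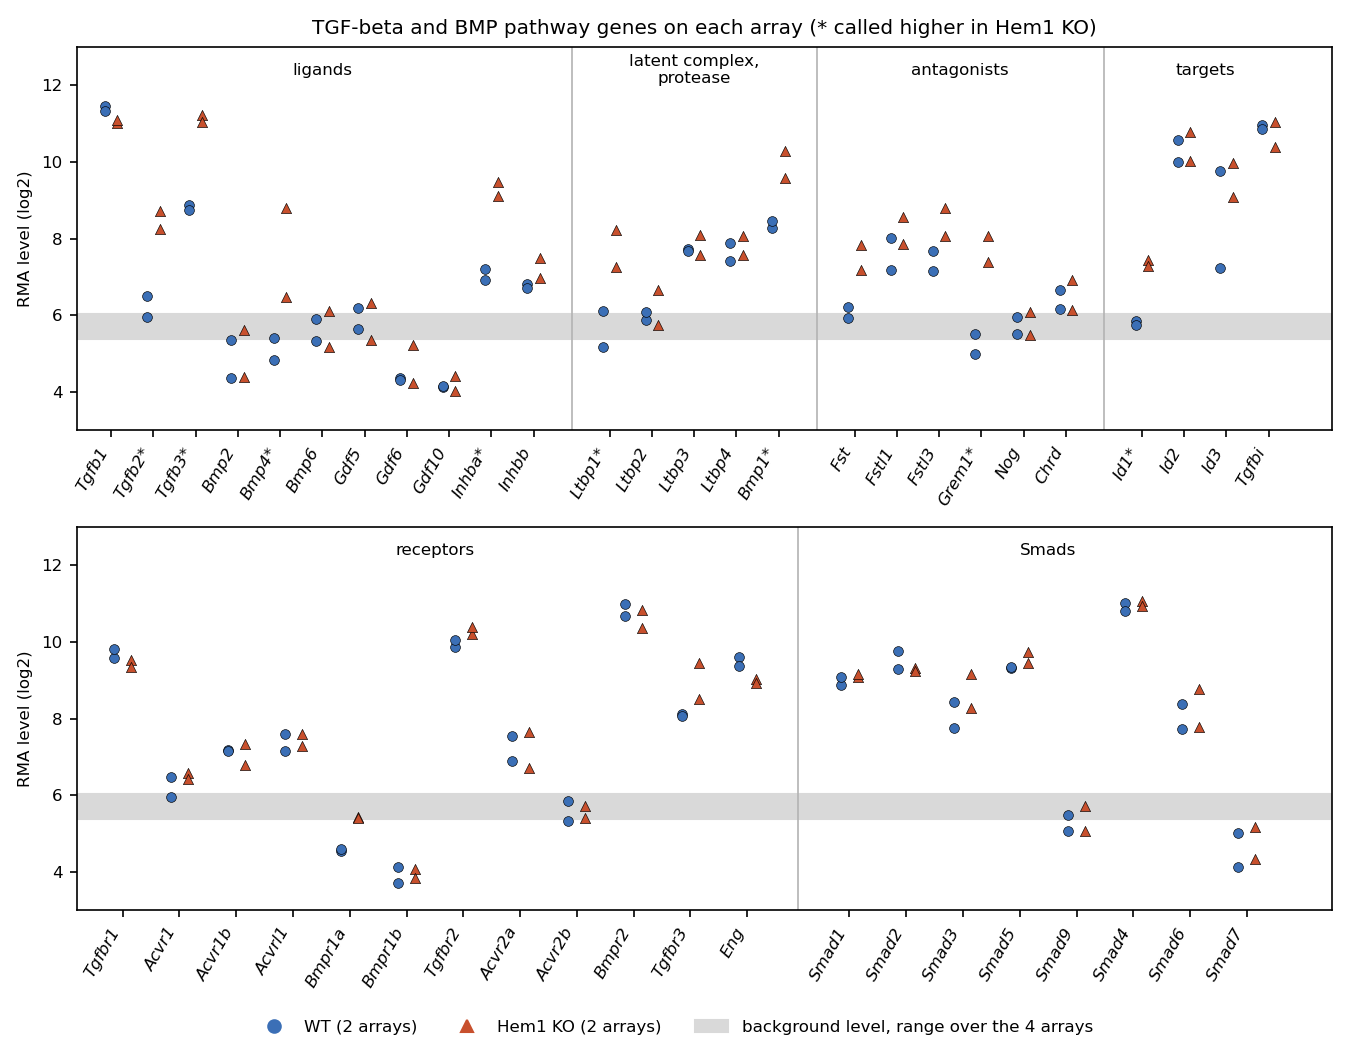
RMA levels (log2, y axis) of the 46 measured pathway genes on each array, grouped by role, with WT arrays as circles, Hem1 KO arrays as triangles, the background level of 5.38 to 6.04 as a grey band and called genes starred. Circles and triangles do not overlap for the 8 starred genes. They overlap for 7 of 12 receptors and 6 of 8 Smads, beside 14475 of all 19505 genes.

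Markers of other cells were read beside these genes. Of 9 measured stromal markers (fibroblasts, osteoblasts and pericytes), 6 were called higher in Hem1 KO cultures and 0 lower, with a median difference of 1.94. Their mean level was 7.24 and 6.72 (WT) against 8.86 and 8.27 (Hem1 KO), and Lum and Thy1 stayed below background on all 4 arrays. With 1 array left out, the median difference of the stromal markers ran from 1.54 to 2.33. The calls of Col1a2 and Col3a1 ended when only genes above the median of all genes were tested. The part of the stromal markers in the differences of the pathway genes was not tested. All 9 measured macrophage markers were above background on every array, with a mean level of 11.4 and 11.1 (WT) against 10.9 and 10.9 (Hem1 KO). Limma called 0 of them, while 1 had an unadjusted p under 0.05, with a lower level in Hem1 KO cultures. Both Hem1 KO arrays lay below both WT arrays for 6 of the 9 macrophage markers (13.3% of all genes) and above them for 0 (12.5% of all genes). Of 6 endothelial markers, Cdh5 was higher (at least 1.86-fold) and Vwf lower (2.87-fold), and Tek lay below background throughout. Quantile normalization ended the call of Cdh5, and omitting either WT array that of Vwf. Of 5 basophil and mast cell markers, limma called Mcpt8, a basophil protease gene, which read 5.89 and 5.22 (WT) against 10.07 and 9.52 (Hem1 KO), 18.9-fold higher. Cpa3, Ms4a2 and Fcer1a of the same list lay below background on all 4 arrays. Prss34, also on that list, was above background on all 4 arrays and not called, with a difference of 0.036. It read 7.16 and 6.30 (WT) against 7.29 and 6.25 (Hem1 KO). Of 4 platelet, 4 T cell, 3 B cell and 4 neutrophil markers, 0 were called by limma and 0 had an unadjusted p under 0.05. The part of these other cell types was not tested either.

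**Figure D2:**
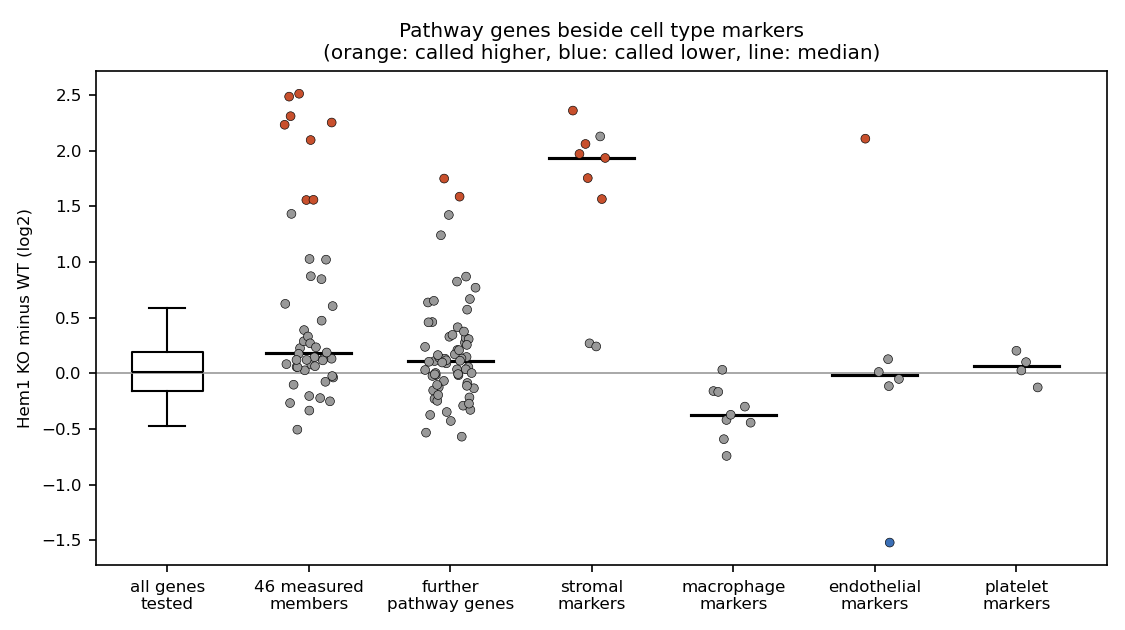
Hem1 KO minus WT differences (log2, y axis) of the measured pathway genes, the further pathway genes and 4 lists of cell type markers, one point per gene, with the median as a line; the box shows the quartiles and the 5th to 95th percentile of all 19505 genes. The 8 called pathway genes span 1.56 to 2.51, the same range as most stromal markers, whose median is 1.94. The medians are 0.18 for the 46 genes and -0.37 for the macrophage markers.

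The promoters of called genes are shown because these genes moved in the same direction. Of the 8 called genes, 5 had an entry in the RefSeq promoter table (GRCm38.p6). Those with a single annotated start, Tgfb2, Bmp4, Inhba and Grem1, are printed here as the 250 bases before the start, in the direction of the gene. They lie at chr1:186705990-186706239 (minus strand), chr14:46390670-46390919 (minus), chr13:16011601-16011850 (plus) and chr2:113758649-113758898 (minus). Capitals mark matches to short motifs, searched on both strands: the Smad box (GTCTG or CAGAC), the GC-rich element bound by BMP Smads (GGCGCC), AP-1 (TGANTCA), TEAD (GGAATG or CATTCC) and the CArG box of SRF.
Tgfb2: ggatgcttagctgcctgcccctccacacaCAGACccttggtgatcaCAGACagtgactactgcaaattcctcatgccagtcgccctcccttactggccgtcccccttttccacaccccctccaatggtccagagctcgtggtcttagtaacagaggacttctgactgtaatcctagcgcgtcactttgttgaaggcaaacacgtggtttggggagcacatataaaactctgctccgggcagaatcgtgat
Bmp4: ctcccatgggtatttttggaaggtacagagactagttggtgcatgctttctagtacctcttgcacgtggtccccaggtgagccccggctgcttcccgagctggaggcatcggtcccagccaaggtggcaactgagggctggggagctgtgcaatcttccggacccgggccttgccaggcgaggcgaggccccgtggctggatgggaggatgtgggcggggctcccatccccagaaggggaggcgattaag
Inhba: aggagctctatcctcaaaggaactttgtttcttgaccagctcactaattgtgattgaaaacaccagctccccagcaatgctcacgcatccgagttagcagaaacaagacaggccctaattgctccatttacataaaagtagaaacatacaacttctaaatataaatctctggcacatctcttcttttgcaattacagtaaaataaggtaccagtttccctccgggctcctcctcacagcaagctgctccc
Grem1: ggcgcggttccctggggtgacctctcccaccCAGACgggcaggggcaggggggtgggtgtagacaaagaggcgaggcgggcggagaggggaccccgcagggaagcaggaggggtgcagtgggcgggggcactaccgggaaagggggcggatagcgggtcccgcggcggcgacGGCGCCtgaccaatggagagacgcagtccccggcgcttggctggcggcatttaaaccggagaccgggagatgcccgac

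The Tgfb2 window held 2 Smad boxes, beginning 221 and 204 bases before the start, and the Grem1 window held 1 Smad box at 219 bases and 1 GC-rich element at 78 bases. The windows of Bmp4 and Inhba held none of the motifs searched. Ltbp1 has 2 annotated starts, with 1 Smad box before the first and 2 before the second, and none of the other motifs. Matches did not overlap. Over the 32851 promoter windows of the same length, 42.2% held a Smad box, 9.59% the GC-rich element, 6.75% AP-1, 12.6% TEAD and 1.47% the CArG box. The promoter letters therefore showed no motif that all of these genes hold, and a match is a description of the letters alone.

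Among the TGF-beta ligands, the isoforms Tgfb2 and Tgfb3 were higher in Hem1 KO cultures and Tgfb1 was not called. Tgfb3, a ligand known from palate and connective tissue development, read 8.89 and 8.74 (WT) against 11.21 and 11.03 (Hem1 KO). The 2 genotypes were more than 2 log2 units apart, with replicates within 0.2 of each other, and the difference was 2.31 (SE 0.31, 4.96-fold, adjusted p = 0.00211 by limma). Tgfb2, whose product depends on the co-receptor betaglycan for efficient receptor binding, read 6.51 and 5.96 (WT) against 8.73 and 8.25 (Hem1 KO). Every Hem1 KO value was above every WT value, and Tgfb2 was 4.77-fold higher (difference 2.25, SE 0.34, adjusted p = 0.00312). Tgfb1, the isoform that leukocytes typically make, read 11.46 and 11.32 (WT) against 11.02 and 11.09 (Hem1 KO). Its Hem1 KO arrays lay below its WT arrays, but the difference of -0.34 (SE 0.31) was not called and its 95% interval ran from -1.004 to 0.33. With any single array left out, the differences stayed between 2.22 and 2.40 for Tgfb3 and between 1.98 and 2.53 for Tgfb2.

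Inhba encodes the subunit of activin A, a ligand that signals through Smad2 and Smad3. It read 7.20 and 6.92 (WT) against 9.48 and 9.10 (Hem1 KO). This was 4.70-fold higher (difference 2.23, SE 0.32, adjusted p = 0.00259 by limma). With any single array left out, the difference stayed between 2.04 and 2.42. The genotypes were far apart against a replicate SD of 0.20 in WT and 0.27 in Hem1 KO cultures. Inhbb, which encodes the subunit of activin B, read 6.82 and 6.72 (WT) against 7.51 and 6.98 (Hem1 KO). All its Hem1 KO values exceeded its WT values, and its difference of 0.47 (95% interval -0.23 to 1.18) was not called.

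Of the 6 measured BMP and GDF ligand genes among the 46, Bmp4 was called. It read 5.42 and 4.84 in WT cultures, below background on both arrays, and 8.81 and 6.48 in Hem1 KO cultures. Both Hem1 KO arrays were above background but differed from each other by more than 2 log2 units (SD 1.65), and Hem1 KO replicate 1 was the high one. Bmp4 was at least 3.86-fold higher in the mean of its arrays (adjusted p = 0.0399 by limma), a bound taken against the background level. The bound leaves out the spread between replicates, and the fitted difference was 2.51 (SE 0.56, 95% interval 1.30 to 3.72). Without Hem1 KO replicate 1 the difference was 1.34 and without Hem1 KO replicate 2 it was 3.68, and quantile normalization ended the call (adjusted p = 0.165). The other 5, Bmp2, Bmp6, Gdf5, Gdf6 and Gdf10, had differences of -0.077 to 0.39, and Bmp2, Gdf6 and Gdf10 lay below background on all 4 arrays. Among the 11 measured ligand genes as a group, 4 were higher (1.48% of all genes), 0 lower (0.133% of all genes) and 7 not called. The median difference of the 11 was 0.39, beside a median of 1.94 for the stromal markers.

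Storage and processing genes followed a similar division. Ltbp1, which encodes a protein that binds latent TGF-beta to the matrix, read 6.10 and 5.18 (WT) against 8.22 and 7.25 (Hem1 KO). It was above background on 1 of 2 WT arrays and on both Hem1 KO arrays, and was 4.28-fold higher (difference 2.10, SE 0.40, adjusted p = 0.0149 by limma). Replicates differed by nearly 1 log2 unit within each genotype, yet the genotypes did not overlap. Without WT replicate 2 its difference was 1.64 and the call ended (adjusted p = 0.0772). Ltbp2, Ltbp3 and Ltbp4, the other members of that family, had differences of 0.13 to 0.23, and their arrays overlapped between genotypes.

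Bmp1 encodes no BMP but a metalloprotease that trims procollagens and cleaves chordin and Ltbp1 protein. It read 8.28 and 8.46 (WT) against 10.28 and 9.58 (Hem1 KO), 2.94-fold higher (difference 1.56, SE 0.34, adjusted p = 0.0349 by limma). All values were well above background and did not overlap between genotypes. The call ended when either WT array (1.47 without replicate 1, 1.65 without replicate 2) or the first Hem1 KO array was left out, with adjusted p from 0.0733 to 0.150, and after quantile normalization (adjusted p = 0.0520).

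**Figure D3:**
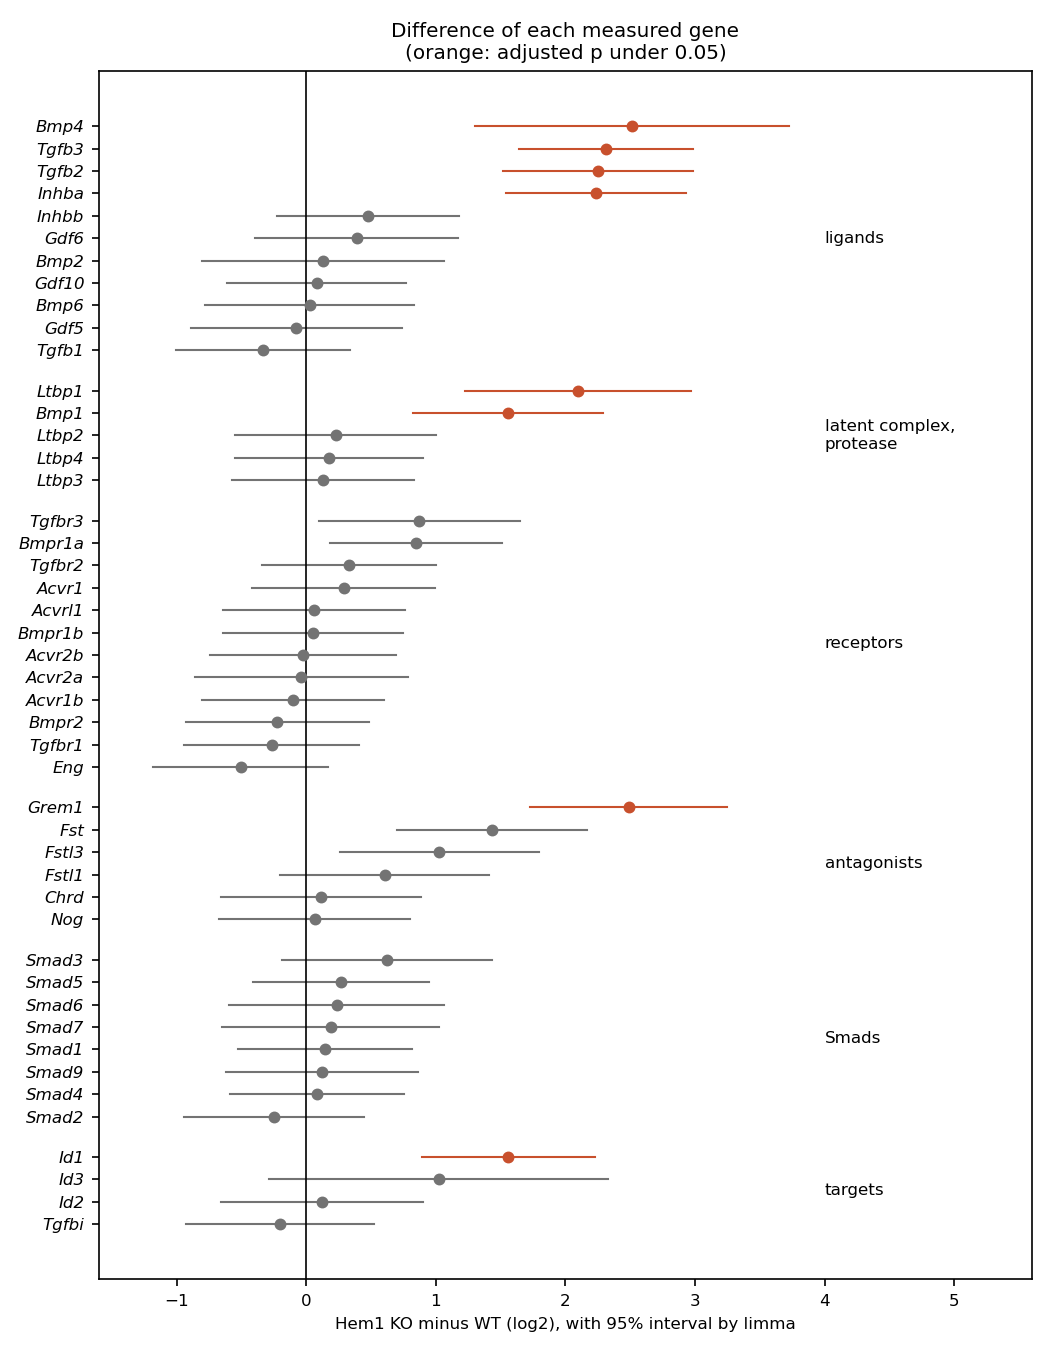
Hem1 KO minus WT difference (log2, x axis) of each measured gene with its 95% interval from limma, grouped by role and sorted within each group, with called genes in orange. Called were 4 of 11 ligands, 2 of 5 storage and protease genes, 1 of 6 antagonists and 1 of 4 targets. Of the receptors 0 of 12 and of the Smads 0 of 8 were called, beside 1.48% of all genes called higher. The difference between roles was not tested.

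None of the 12 receptor genes was called by limma, beside 1.48% of all genes called higher and 0.133% called lower. At an unadjusted p under 0.05, 2 (Tgfbr3 and Bmpr1a) had higher levels and 0 had lower ones in Hem1 KO cultures. The shares of all genes at that p were 3.63% and 1.57%. Tgfbr1, the type I receptor of TGF-beta, read 9.60 and 9.83 (WT) against 9.54 and 9.35 (Hem1 KO) (difference -0.27, 95% interval -0.95 to 0.41). Tgfbr2, the type II receptor, read 9.88 and 10.05 (WT) against 10.21 and 10.39 (Hem1 KO) (difference 0.33, 95% interval -0.34 to 1.005). The Hem1 KO arrays thus lay just below the WT arrays for Tgfbr1 and just above them for Tgfbr2. Both intervals leave out differences as large as those of Tgfb2 and Tgfb3. Bmpr2, the main BMP type II receptor, read 10.99 and 10.68 (WT) against 10.85 and 10.37 (Hem1 KO), with overlapping arrays (difference -0.22).

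Bmpr1a, a BMP type I receptor, had little spread between replicates, at 4.56 and 4.61 (WT) against 5.44 and 5.42 (Hem1 KO). These values were below background except on Hem1 KO replicate 2, and the difference of 0.85 (SE 0.31) was not called (adjusted p = 0.498 by limma). Acvr1 read 6.49 and 5.97 (WT) against 6.597 and 6.44 (Hem1 KO), with a difference of 0.29. Acvr1b, Acvrl1, Bmpr1b, Acvr2a and Acvr2b, the remaining type I and type II receptors, differed by -0.10 to 0.057 with overlapping arrays.

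The co-receptors pointed in opposite directions and neither was called. Tgfbr3, which encodes betaglycan, read 8.13 and 8.08 (WT) against 9.45 and 8.51 (Hem1 KO) (difference 0.87, SE 0.36, adjusted p = 0.718 by limma). Hem1 KO replicate 1 was the high array, and the difference was 1.34 without Hem1 KO replicate 2 but 0.40 without Hem1 KO replicate 1. Eng, which encodes endoglin, a co-receptor found on endothelial cells and macrophages, read 9.60 and 9.38 (WT) against 9.04 and 8.93 (Hem1 KO). Its Hem1 KO arrays lay below its WT arrays, with a difference of -0.51 (95% interval -1.18 to 0.17).

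Of 6 antagonists and ligand-binding proteins, limma called Grem1 higher and 0 lower, against 1.48% and 0.133% of all genes. At an unadjusted p under 0.05, 3 had higher and 0 had lower levels, against 3.63% and 1.57% of all genes. Grem1 encodes gremlin, which sequesters BMPs such as Bmp4 protein. It read 5.51 and 4.98 in WT cultures, below background on both arrays, and 8.08 and 7.39 in Hem1 KO cultures. Grem1 was at least 4.11-fold higher in the mean of its arrays (fitted difference 2.49, SE 0.35, 95% interval 1.73 to 3.25, adjusted p = 0.00246 by limma). With any single array left out, the differences ran from 2.14 to 2.83. Nog and Chrd, which encode the BMP antagonists noggin and chordin, had overlapping arrays and differences of 0.064 and 0.12, of which that of Nog was -0.037 after centring each array and -0.047 after quantile normalization.

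Genes of the follistatin family had differences above 0 that did not pass the threshold. Fst, whose product follistatin neutralizes activins, read 6.22 and 5.94 (WT) against 7.18 and 7.85 (Hem1 KO), with a difference of 1.43 (SE 0.34, adjusted p = 0.0586 by limma). It lay just outside the threshold, with no overlap between genotypes. Here Hem1 KO replicate 2 was the higher array. Replicate 1 was the higher one for 40 of the 46 genes (87%) and for 81.9% of all genes. Without Hem1 KO replicate 1 the Fst difference was 1.77. Fstl3, a related activin-binding protein, read 7.67 and 7.16 (WT) against 8.81 and 8.07 (Hem1 KO) (difference 1.03, SE 0.35, adjusted p = 0.406). Without Hem1 KO replicate 2 the Fstl3 difference was 1.40. Fstl1, a secreted glycoprotein with a follistatin-like domain, read 8.01 and 7.18 (WT) against 8.55 and 7.85 (Hem1 KO), and its arrays overlapped (difference 0.60, 95% interval -0.20 to 1.41). Antagonist genes had a median difference of 0.82, beside 1.94 for the stromal markers.

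The Smads, which carry the signal to the nucleus, were not called: 0 of 8 by limma, with 0 at an unadjusted p under 0.05 in either direction. Of all genes, 1.48% were called higher and 0.133% lower. At that unadjusted p, 3.63% of all genes were higher and 1.57% lower. Smad4, the partner of all receptor-activated Smads, read 11.02 and 10.81 (WT) against 11.06 and 10.94 (Hem1 KO). Its difference was 0.082, of either sign depending on scaling (-0.018 after centring each array on its median), with a 95% interval of -0.59 to 0.76. Smad3 read 8.44 and 7.77 (WT) against 9.17 and 8.29 (Hem1 KO), the largest difference among the Smads at 0.62 (95% interval -0.19 to 1.44), with overlapping arrays. Smad2 differed by -0.25, and of the BMP Smads, Smad1 differed by 0.14 and Smad5 by 0.27. For 2 of the 8 Smads, Smad1 and Smad5, both Hem1 KO arrays lay above both WT arrays by small margins (12.5% of all genes). Smad9 and the inhibitory Smad7 lay below background on all arrays, and Smad6, the other inhibitory Smad, was above it on all 4 with a difference of 0.23.

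Of 4 target genes 1 was called, beside 1.48% of all genes called higher. The Id genes encode inhibitors of DNA binding, proteins without a DNA-binding domain that hold back basic helix-loop-helix factors, and are classical targets of BMP Smads. Id1 read 5.85 and 5.75 (WT) against 7.44 and 7.29 (Hem1 KO). It was above background on 1 of 2 WT arrays and on both Hem1 KO arrays. Replicates agreed within 0.2, and Id1 was 2.95-fold higher (difference 1.56, SE 0.31, adjusted p = 0.0189 by limma). Leaving out WT replicate 1 (1.61, adjusted p = 0.0688) or WT replicate 2 (1.51, adjusted p = 0.154) ended the call, although the difference hardly moved.

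Id2 and Id3 did not show the same separation. Id2 read 10.56 and 10.00 (WT) against 10.79 and 10.01 (Hem1 KO), with a difference of 0.12 (95% interval -0.66 to 0.90). Id3 read 9.77 and 7.24 (WT) against 9.96 and 9.09 (Hem1 KO). WT replicate 2 stood more than 1.5 log2 units below the other 3 arrays, and the genotypes overlapped. The Id3 difference of 1.02 (SE 0.61), which limma did not call, became 2.29 without WT replicate 1 and -0.25 without WT replicate 2. Tgfbi, a matrix protein gene named for its induction by TGF-beta, read 10.97 and 10.87 (WT) against 10.38 and 11.05 (Hem1 KO), with a difference of -0.20 and overlapping arrays.

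**Figure D4:**
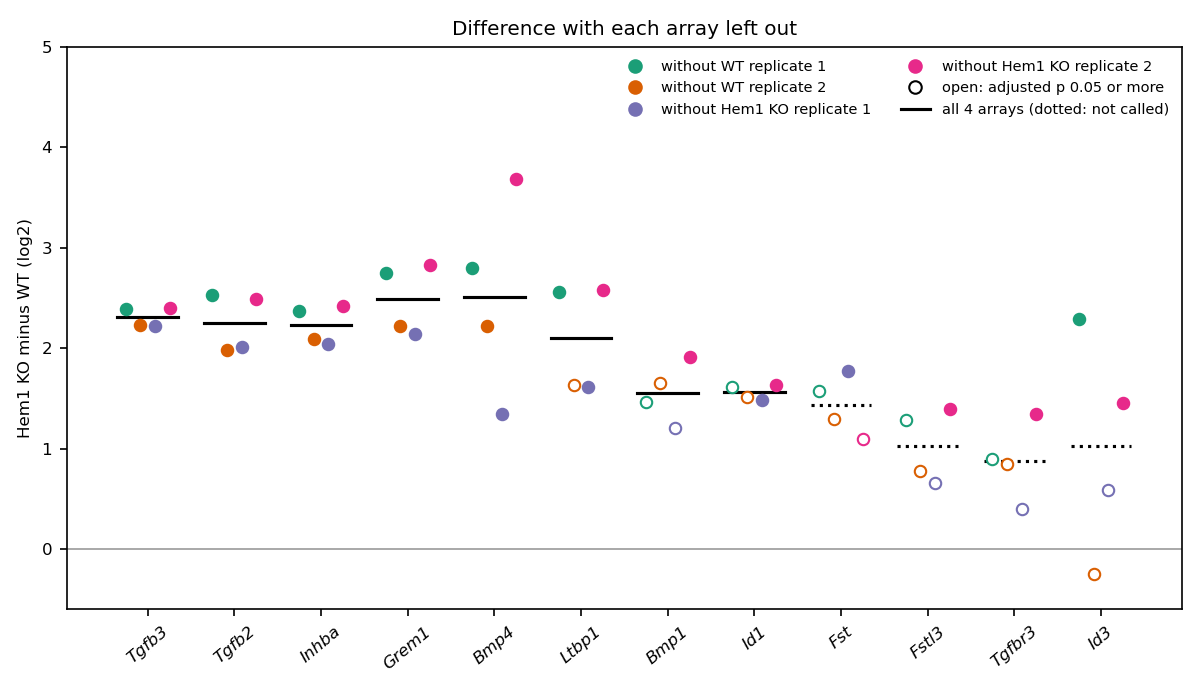
Hem1 KO minus WT difference (log2, y axis) of the 8 called genes and of Fst, Fstl3, Tgfbr3 and Id3 with all 4 arrays (bar) and with each array left out (points, open where the adjusted p was 0.05 or more). With 1 array left out limma gave every gene the same variance, so a filled point marks the size of the difference alone. Bmp4 ranges from 1.34 to 3.68, and Id3 ranges from -0.25 to 2.29.

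Other genes of the pathway were read from a second list of 70, also chosen with earlier results known, of which 66 were measured. Limma called 2 higher, which is 3.03% of them beside 1.48% of all genes, and 0 lower. At an unadjusted p under 0.05, 5 had higher levels and 0 lower ones, against 3.63% and 1.57% of all genes, and the median difference was 0.11. Pmepa1, a TGF-beta-induced membrane protein that restrains Smad2 and Smad3, read 8.13 and 8.29 (WT) against 10.18 and 9.74 (Hem1 KO). It was 3.36-fold higher (difference 1.75, SE 0.32, adjusted p = 0.0113 by limma), without overlap. With any single array left out, the difference ran from 1.53 to 1.97. Gdf11, a ligand related to myostatin, read 5.29 and 5.28 in WT, below background, and 7.16 and 6.58 in Hem1 KO cultures, at least 2.26-fold higher (adjusted p = 0.0247). Its call ended without either WT array or Hem1 KO replicate 1 (adjusted p from 0.0646 to 0.103). By role, limma called 1 of 20 further ligands, 1 of 14 intracellular regulators and 0 of 8 receptors and coreceptors, 7 anchors and activators of latent TGF-beta, 9 secreted antagonists and 8 targets. At an unadjusted p under 0.05, 1 of those antagonists was higher, and 0 in the other uncalled roles passed in either direction.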

How the data were processed

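Log2 values of 4 arrays were used as deposited. They were made with RMA per the submitters' processing notes, which give no version or settings. Array medians differ, so no quantile step across arrays is visible, and no source used here gives the build. Of 29129 rows, 19572 name 1 gene in the platform annotation, 6923 are controls and 2634 others name none. The brightest probe set per gene was kept (55 genes have several, 0 of them members), leaving 19505. The fit used R 4.3.3 and limma 3.58.1 (lmFit and eBayes with genotype as sole term and 11.2 prior degrees of freedom; two-sided; no filter on dim genes). The number of arrays limits the precision. The fit was tested on simulated data.

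Members and lists were chosen with earlier results of these data known, so lists are described by counts and medians, and no list was tested. All 46 measured members are accounted for. Array values are given for called genes, for genes with an unadjusted p under 0.05, for the Id genes, Tgfb1, Tgfbr1, Tgfbr2, Smad3 and Smad4, and for a few others chosen after their values were seen; of the further pathway genes, called ones are named. For a gene not above background on either array of exactly 1 genotype, the fold is a bound ("at least"): values under background were first raised to it in that genotype. It is a bound on the fold between mean log2 levels and leaves out the spread between replicates. The alternatives were leaving out each array, a block for replicate number, median centring, quantile normalization, a filter on dim genes, an intensity trend in the prior, mean probe sets, testing all probe sets, and a threshold of 0.1. Promoter windows come from RefSeq (GRCm38.p6), matched by symbol for 34 of 47 members.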

Additional observations from a re-analysis of the deposited data

How the results depend on the processing

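Of the 8 called members, 4 (Tgfb2, Tgfb3, Inhba and Grem1) were called under every alternative that tested them, and none of the 8 changed sign. In the alternatives with 1 array left out, calls rested on the size of the difference alone. Members called higher numbered 5 to 11 with 1 array left out and 3 when only genes above the median of all genes were tested, which kept 29 members. Members called lower numbered 0 throughout. Over all genes, calls higher ran from 185 to 545 and calls lower from 26 to 101 with 1 array left out; with only brighter genes they were 136 and 4. Calls lower were 70 after centring, 16 after quantile normalization and 205 with an intensity trend. Further pathway genes called higher numbered 1 to 5 with 1 array left out, 4 after centring, 4 with the trend and 1 among brighter genes. Of the 38 members not called, 23 changed sign under some alternative and 5 were called under some alternative. Of those with values in the text, leaving out 1 array gave -0.46 to 0.016 for Bmpr2, -0.023 to 0.19 for Smad4, -0.26 to 0.73 for Smad6, -0.23 to 0.36 for Nog, -0.28 to 0.51 for Chrd, -0.27 to 0.51 for Id2, -0.25 to 2.29 for Id3 and -0.54 to 0.13 for Tgfbi, and centring gave -0.018 for Smad4 and -0.037 for Nog, for which quantile normalization gave -0.047. The cause was not tested.

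With the replicate number as a block, 11 members were called higher (the 8 with Fst, Fstl3 and Bmpr1a), as were 620 of all genes and 5 further pathway genes, and 199 genes were called lower. The labels do not say that the numbers pair mice; same-numbered arrays deviated together across genes (r = 0.24), and 2 pairs cannot settle it.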
